A study of Mus musculus with 6 samples.

Results

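The transcriptional co-activators Yap (Yap1) and Taz (Wwtr1), the TEA-domain factors Tead1, Tead2, Tead3 and Tead4, and the cofactors Vgll2 and Vgll4 were followed in whole tibialis anterior (TA) muscle of the mouse. These 8 genes were chosen by symbol, and all 8 had a row among the 13226 genes of the deposited count table. Muscles came from male C57BL/6 mice of 8 weeks and were excised 7 days after injection into the muscle of an adeno-associated viral vector of serotype 6, which carried either a short hairpin RNA against Yap (AAV6:Yap-shRNA) or a control, with opposite limbs of the same animals receiving each. There were 3 control and 3 Yap-shRNA libraries of polyadenylated RNA. The titles call the control an empty vector and the vector field calls it AAV6:LacZ-shRNA, so these libraries are called control here. The Yap-shRNA was built into a plasmid with a CMV promoter and eGFP, which is not restricted to muscle fibres, and the share of fibres that took up the vector was not given.

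Yap and Taz have no DNA-binding domain of their own. Kinases of the Hippo pathway phosphorylate them and hold them in the cytoplasm, and when they reach the nucleus they bind Tead proteins, which contact DNA at the MCAT element, a short motif first described in muscle gene promoters. The Vestigial-like (Vgll) proteins bind Teads as well: Vgll2 is a muscle-enriched cofactor and Vgll4 competes with Yap for Tead binding.

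The Tead core motif GGAATG, read as CATTCC on the other strand, was searched on both strands in RefSeq promoters of GRCm38.p6, each running from 250 bases before to 50 bases from a gene's start. Yap1, Wwtr1, Tead2, Tead3, Vgll2 and Vgll4 had an entry, and Tead1 and Tead4 are named only. The letters were present for Yap1, Wwtr1, Tead3 and Vgll4 and not in the windows of Tead2 and Vgll2. They were in 6 of the 9 windows of these 6 genes and in 14.7% of all 32851 windows. The following stretches of 30 bases, all from the minus strand, are shown because they place the motif that Tead proteins read beside the genes that encode Yap, Taz, a Tead and a Tead cofactor, with the motif in capitals. A match is a description of the letters and not a measured binding site.
Yap1, chr9:8004720-8004749: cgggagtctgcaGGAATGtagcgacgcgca
Wwtr1, chr3:57576029-57576058: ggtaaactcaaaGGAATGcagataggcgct
Vgll4, chr6:114969268-114969297: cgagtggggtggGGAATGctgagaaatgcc
Tead3, chr17:28350970-28350999: gacgacgagcgaGGAATGgggtgcgcggga
Tead3, chr17:28350706-28350735: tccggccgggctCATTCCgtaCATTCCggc
Counted from the annotated start, with negative positions before it, the motif began at -141 in Yap1, -170 in Wwtr1 and -82 in Vgll4. In Tead3 it began at -182 from one annotated start, and at -123 and -114 (read as CATTCC) and 3 (read as GGAATG) from another.

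Paralogs can share reads, so the coding sequences of their longest coding transcripts (GENCODE M21) were aligned. Yap1 and Wwtr1 were identical at 68.2% of 1153 aligned bases, and their longest identical run was 15 bases. Vgll2 and Vgll4 shared at most 10 bases. Among Tead pairs the identity ran from 71.6 to 74.8%, and the longest runs were 59 bases between Tead3 and Tead4, 35 between Tead2 and Tead3, and 17 between Tead1 and each of the others. The run shared by Tead3 and Tead4 is printed because it is the stretch in which a read could come from either gene. It spans 2 coding exons in each, at chr17:28332826-28333001 in Tead3 and chr6:128228472-128228618 in Tead4, both on the minus strand of GRCm38.
Tead3 and Tead4, shared coding run: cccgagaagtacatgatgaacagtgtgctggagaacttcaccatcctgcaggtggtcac
The read length was not given in the sources used here, so how many reads of Tead3 and Tead4 fell in that run is uncertain. Yap1 (chr9:7931999-8004596, minus strand) shared 116 bases of exon with Gm20416 on the opposite strand, or 1.25% of its exons. Tead2 (chr7:45215753-45233644, plus strand) shared 13 bases with Cd37 on the opposite strand. The strand setting of the counting was not given. Wwtr1 (chr3:57455649-57575910, minus strand), Tead1 (chr7:112679318-112906807, plus), Tead3 (chr17:28331671-28350817, minus), Tead4 (chr6:128224288-128300823, minus), Vgll2 (chr10:52022502-52028471, plus) and Vgll4 (chr6:114860628-114969994, minus) overlapped no exon of another gene.

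The libraries held 11987167 to 12710393 counts. Markers of muscle fibres were present as labelled, since 6 listed genes such as Acta1 and Ckm summed to 104900 to 118300 CPM (counts scaled to a common library size by edgeR's TMM method) in control and 100000 to 120500 CPM in Yap-shRNA libraries. The libraries were not alike in other cells. The 5 tendon cell markers (Tnmd, Fmod, Thbs4, Scx and Comp, none at 0) summed to 639, 174 and 126 CPM in control 1 to 3 and to 169, 145 and 529 CPM in Yap-shRNA 1 to 3. The 5 fibroblast markers were also highest in control 1 (1957 CPM, others 1001 and 1186) and Yap-shRNA 3 (2227 CPM, others 1184 and 1186). The 3 adipocyte markers (Adipoq, Plin1 and Lep) summed to 31.9 CPM in Yap-shRNA 3 and to 3.36 to 9.26 CPM in the other libraries, with a median log2 fold change of 1.13 and none called. Values without control 1 and Yap-shRNA 3, a choice made after these sums were seen, stand beside the results below.

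Yap1, the gene targeted by the shRNA, had the largest difference in level between the groups of the 8 genes. Its counts were 915, 781 and 833 in control and 381, 311 and 495 in Yap-shRNA libraries, or 71.2, 65.3 and 68.4 CPM against 32.0, 23.9 and 39.5 CPM. Every Yap-shRNA library was below every control library. The means were 68.3 ± 2.96 and 31.8 ± 7.80 CPM (SD, n = 3 each), so that 46.5% of the control level was left, and the individual Yap-shRNA libraries stood at 46.8, 35.0 and 57.8% of the control mean. The log2 fold change was -1.10 (SE 0.16, 95% interval -1.47 to -0.74), a fold of 0.465 (0.361 to 0.599). In whole muscle, fewer cells of a type and less RNA per cell cannot be told apart.

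The call on Yap1 depended on the test. By edgeR's quasi-likelihood test its unadjusted p was 6.89e-05, the second smallest of all genes, and its Benjamini-Hochberg adjusted p was 0.436. No gene passed an adjusted p of 0.05 in that test (0.00% of 13226), and 232 genes (1.75%) had an unadjusted p below 0.05, of which Yap1 was the only member. DESeq2 called 5 genes of 13220 (0.0378%) and edgeR's likelihood ratio test 5 of 13226 (0.0378%), and Yap1 was the only member among them in both, with adjusted p of 5.85e-07 and 2.22e-06. With the CPM of 3 libraries against 3, a two-sided exact permutation test gave p = 0.10, which is the lowest it can give. Yap1 was among 87 genes with a log2 fold change at or below its own.

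The spread of Yap1 differed between the groups. Its coefficient of variation was 4.33% among control libraries, where counting error alone gives 3.44%, and 24.6% among Yap-shRNA libraries, where counting error gives 5.03%. The highest Yap1 in each group was in control 1 and in Yap-shRNA 3, the libraries with the high tendon and fibroblast marker sums. Without these libraries the log2 fold change was -1.26 (adjusted p = 0.0564, edgeR's quasi-likelihood test).

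**Figure D1:**
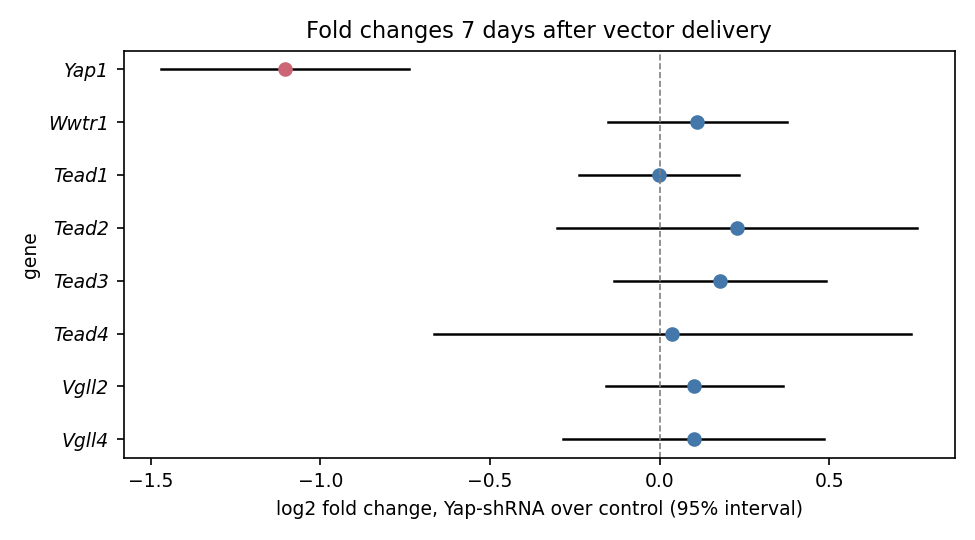
Log2 fold change (Yap-shRNA over control, horizontal axis) of the 8 genes with its 95% interval as a line, from edgeR with 3 libraries per group. The interval of Yap1 lies from -1.47 to -0.74, and those of the other 7 genes include 0.

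Wwtr1, which encodes the Yap paralog Taz, did not differ beyond the spread between libraries. It stood at 38.7, 31.4 and 32.5 CPM in control and 36.6, 33.6 and 40.7 CPM in Yap-shRNA libraries, and the groups overlapped. Its log2 fold change was 0.11 (SE 0.12, 95% interval -0.15 to 0.38; adjusted p = 1.0, edgeR's quasi-likelihood test), an interval that allows a fold of 0.899 to 1.30. Control 1 and Yap-shRNA 3 again held the highest value of their groups, and without them the log2 fold change was 0.14.

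In the balance of the pair, Yap1 was the side that differed. Levels of different genes were compared as CPM per kb, dividing by the summed length of all annotated exons. On that scale Yap1 made up 48.7, 51.8 and 52.1% of the sum of Yap1 and Wwtr1 in control libraries, and 31.1, 26.8 and 33.4% in Yap-shRNA libraries. The means, 50.9 ± 1.84% and 30.4 ± 3.33% (SD, n = 3 each), differed by -20.4 percentage points without overlap (two-sided exact permutation test, p = 0.10, the lowest possible, and 0.35 after adjustment over 7 shares and ratios). The sum of both genes went from 14.5 ± 1.12 to 11.2 ± 1.58 CPM per kb (SD, n = 3 each), a change of -23.2%, and it did not overlap between the groups either.

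Whether Yap1 and Wwtr1 start from equal levels rested on the length used. The exons of Yap1 add up to 9257 bases, but its longest coding transcript has 4171, whereas Wwtr1 has 4779 and 4697. With the exon sum the ratio of Yap1 to Wwtr1 was 1.04 ± 0.0746 in control and 0.440 ± 0.0680 in Yap-shRNA libraries (SD, n = 3 each). With the longest coding transcript it was 2.26 ± 0.163 and 0.959 ± 0.148, and Yap1 then made up 69.3% of the pair in control and 48.7% in Yap-shRNA libraries. The difference between the groups was -20.5 percentage points on this scale and -20.9 on raw reads, so the length moved the level of the share and hardly its difference.

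**Figure D2:**
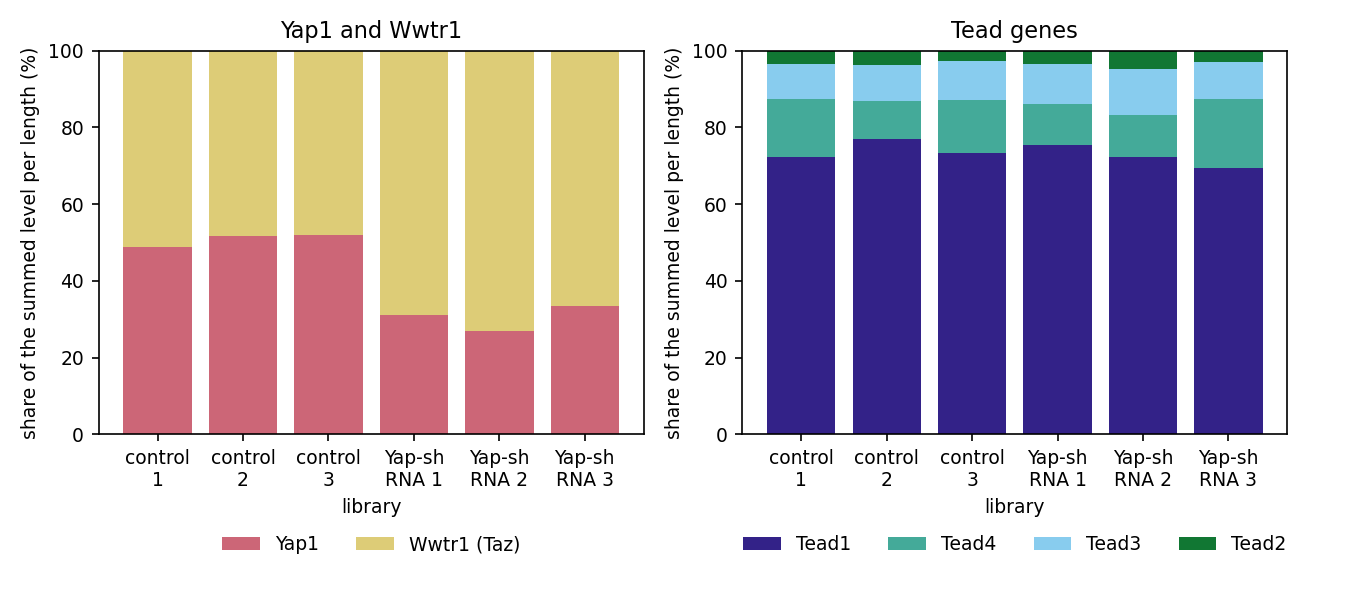
Stacked bars for each of 6 libraries show the share (percent) of the summed level per length (CPM per kb, all exons) held by Yap1 and Wwtr1 (left) and by the 4 Tead genes (right). Yap1 holds 48.7 to 52.1% of its pair in control and 26.8 to 33.4% in Yap-shRNA libraries, while Tead1 holds 69.4 to 77.1% of the Tead sum in all 6.

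Tead1, the Tead gene with the highest level per length in this muscle, was at 181, 150 and 168 CPM in control and 174, 153 and 170 CPM in Yap-shRNA libraries. The groups overlapped throughout, and the means were 166 ± 15.6 and 166 ± 11.2 CPM (SD, n = 3 each). The log2 fold change of -0.0031 (SE 0.10) had a 95% interval from -0.24 to 0.23, the narrowest of the 8 genes, and its sign turned with the scaling of the libraries.

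Tead4, which is known for its role in trophectoderm and in myoblast differentiation, varied most among the members within each group. It was at 10.2, 5.02 and 8.45 CPM in control and 6.46, 6.14 and 11.7 CPM in Yap-shRNA libraries. The lowest value of all 6 was a control and the highest a Yap-shRNA library. Its coefficient of variation was 33.4% in control and 38.7% in Yap-shRNA libraries, against 10.1% and 9.93% from counting error. Control 1 and Yap-shRNA 3 were highest in their groups, as they were for tendon and fibroblast markers, and the part of these cells in the result was not tested. On the log2 scale the fold change was 0.04 (SE 0.31, 95% interval -0.67 to 0.74), and -0.10 without these libraries, so these data allow Tead4 to differ by a fold anywhere from 0.630 to 1.67.

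**Figure D3:**
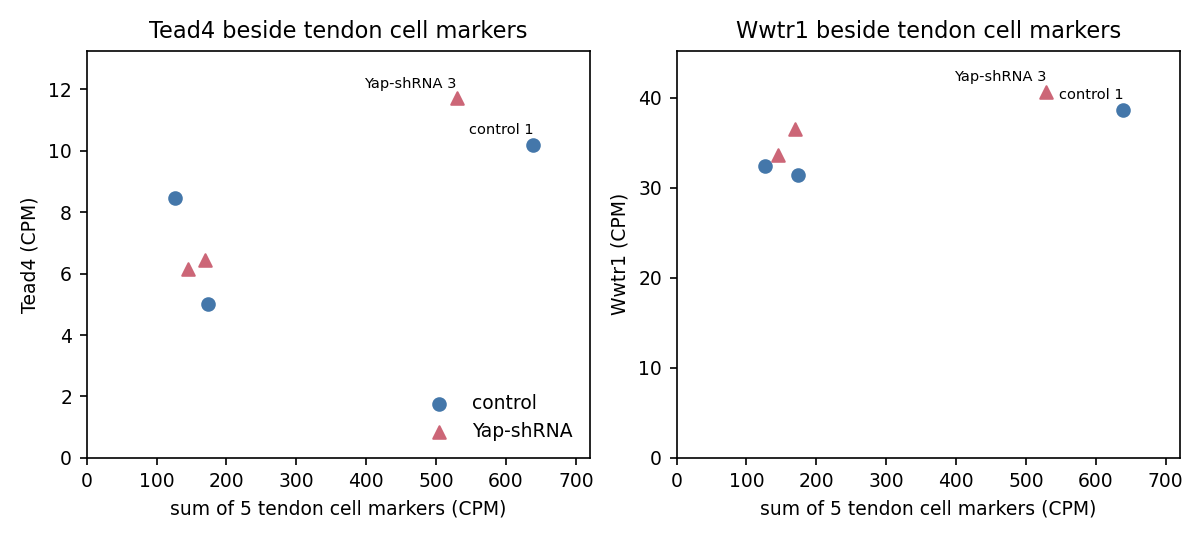
Each point is 1 library, with the sum of 5 tendon cell markers (CPM, horizontal axis) against Tead4 (left) or Wwtr1 (right) in CPM. Control 1 and Yap-shRNA 3, at 639 and 529 CPM of tendon markers, hold the highest Tead4 and Wwtr1 of their groups.

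Tead3, a further Tead paralog best known from placenta, was at 11.2, 9.20 and 11.3 CPM in control and 11.8, 12.4 and 11.6 CPM in Yap-shRNA libraries. All Yap-shRNA libraries were above all control libraries, by a margin smaller than the spread among controls. The Yap-shRNA mean was 113% of the control mean, and the log2 fold change was 0.18 (SE 0.14, 95% interval -0.13 to 0.49; adjusted p = 1.0, edgeR's quasi-likelihood test). Tead3 was thus 1 of 2 members whose groups did not overlap. Over all genes the Yap-shRNA libraries lay wholly below control for 2.71%, as Yap1 did, and wholly above for 2.56%, as Tead3 did.

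Tead2, the paralog known from embryonic tissues, had the fewest reads of the family. Its counts were 39, 30 and 27 in control and 34, 47 and 33 in Yap-shRNA libraries, which is 2.22 to 3.04 and 2.63 to 3.61 CPM. The groups overlapped. The coefficients of variation, 16.1% in control and 16.9% in Yap-shRNA libraries, were close to the 17.7% and 16.2% that counting error gives at this depth. The log2 fold change of 0.23 (SE 0.24, 95% interval -0.30 to 0.76) could not be told from 0 at this depth, and it was 0.45 without control 1 and Yap-shRNA 3.

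The make-up of the Tead pool did not separate the groups. Per length, Tead1 made up 74.2 ± 2.54% of the Tead sum in control and 72.4 ± 3.09% in Yap-shRNA libraries, Tead4 13.0 ± 2.92% and 13.2 ± 4.19%, Tead3 9.53 ± 0.481% and 10.6 ± 1.17%, and Tead2 3.28 ± 0.476% and 3.79 ± 0.931% (SD, n = 3 each). All 4 shares overlapped between the groups (exact permutation tests, two-sided, p = 0.50 for Tead1, 1.0 for Tead4, 0.20 for Tead3 and 0.50 for Tead2). The sum of the Tead genes was 16.6 ± 2.09 CPM per kb in control and 16.9 ± 1.26 in Yap-shRNA libraries. The summed level per length of Yap1 and Wwtr1, divided by that of the Tead genes, was 0.855, 0.951 and 0.841 in control libraries. In Yap-shRNA libraries it was 0.654, 0.617 and 0.706. This ratio rested on the length used and is not a count of molecules. Its control mean was 0.882 with the exon sum, 0.998 with the longest coding transcript and 0.549 on raw reads. The difference of -0.22 between the means showed no overlap (two-sided exact permutation test, p = 0.10, the lowest possible, 0.35 after adjustment), and it was -0.37 when the longest coding transcript set the length. Wwtr1 alone per Tead was 0.433 in control and 0.457 in Yap-shRNA libraries, with overlap.

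Vgll2, the muscle-enriched Tead cofactor, was at 41.5, 53.0 and 42.6 CPM in control and 51.6, 49.1 and 46.5 CPM in Yap-shRNA libraries. The groups overlapped, with the highest and the lowest value both in control. In contrast to Yap1, Wwtr1 and Tead4, it was lowest in control 1 and in Yap-shRNA 3 within their groups. On the log2 scale the fold change was 0.10 (SE 0.12, 95% interval -0.16 to 0.36), and 0.07 without these libraries. Vgll4, the Tead cofactor that competes with Yap, was at 17.0, 12.0 and 12.1 CPM in control and 15.0, 16.3 and 12.8 CPM in Yap-shRNA libraries. Control 1 was the highest of all 6, and the log2 fold change was 0.10 (SE 0.17, 95% interval -0.28 to 0.48). Without control 1 and Yap-shRNA 3 it was 0.38 (adjusted p = 0.881, edgeR's quasi-likelihood test), so the value of Vgll4 rests on these libraries. Vgll2 made up 91.5 ± 2.37% of the sum of both genes per length in control and 91.6 ± 0.755% in Yap-shRNA libraries (SD, n = 3 each; exact permutation test, two-sided, p = 0.90). This share also rested on the length used. With the longest coding transcript it was 80.23% in control and 80.45% in Yap-shRNA libraries, and on raw reads 76.8% and 77.0%.

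In control muscle Vgll2 was the highest member per length at 27.7 ± 3.85 CPM per kb, followed by Tead1 at 12.3 ± 1.15, Yap1 at 7.38 ± 0.320, Wwtr1 at 7.16 ± 0.819, Vgll4 at 2.54 ± 0.527, Tead4 at 2.19 ± 0.733, Tead3 at 1.58 ± 0.178 and Tead2 at 0.540 ± 0.0868 (SD, n = 3 each). Among genes of the count table with an annotated length, and with the exon sum as length, Vgll2 was at the 91.2 percentile. Tead1 was at 81.2, Yap1 at 72.1 and Tead2 at 13.4. Genes with fewer than 60 counts over the 6 libraries were not in that table, so these are ranks among the genes it kept. Neighbours that overlapped between libraries were Yap1 and Wwtr1, Vgll4 and Tead4, and Tead4 and Tead3, whereas Vgll2 lay 2.26-fold above Tead1 on average, and Tead1 lay 1.66-fold above Yap1, without overlap in control libraries.

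In Yap-shRNA muscle Yap1 lay below Wwtr1 on this scale, whereas their ranges overlapped in control. Wwtr1 was at 7.73 ± 0.740 and Yap1 at 3.43 ± 0.843 CPM per kb (SD, n = 3 each), 2.25-fold apart and without overlap. Yap1 then overlapped with Vgll4 at 2.72 ± 0.330. The ratio of Tead1 to Yap1 went from 1.66 ± 0.0854 to 3.68 ± 0.715 (SD, n = 3 each). With the longest coding transcript as length, control Yap1 (16.4 CPM per kb) came close to Tead1 (16.7), and Tead3 (3.81) stood above Tead4 (2.56). Vgll2 stayed highest and Tead2 lowest. The ratio of Yap1 to Wwtr1 in Yap-shRNA libraries was then 0.959 ± 0.148 (SD, n = 3), so the gap between these genes rested on the length.

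**Figure D4:**
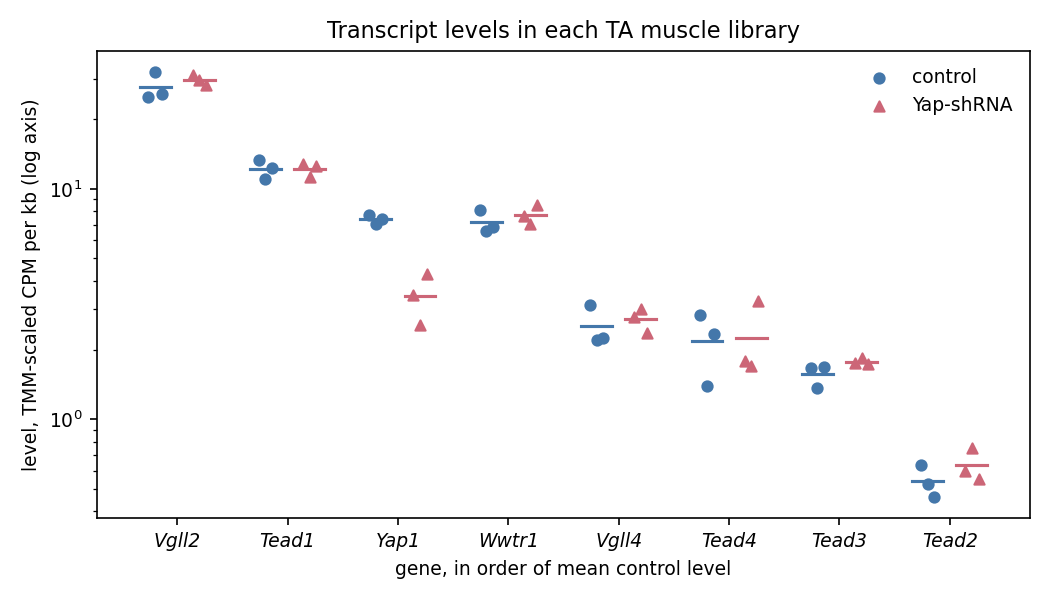
Level per length (TMM-scaled CPM per kb, log axis) of the 8 genes, with 1 point per library and a bar at the group mean, in order of the control mean. Yap1 lies beside Wwtr1 in control (7.38 and 7.16) and below it in Yap-shRNA libraries (3.43 and 7.73).

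Apart from Yap1, the other 7 genes had log2 fold changes from -0.0031 to 0.23, of which 6 were above 0, with a median of 0.10. Over all genes the median was -0.00285 and 48.9% were above 0, and the middle 95% ran from -0.45 to 0.47, so each of the 7 lay well inside it.

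Genes around these factors were read from lists. Of 19 genes of the Hippo kinase cascade and its upstream regulators, 18 were measured, none was called by edgeR's quasi-likelihood test (0.00% of all genes), and 12 had a log2 fold change above 0 (48.9% of all genes), with a median of 0.10. Without control 1 and Yap-shRNA 3 these were 13 of 18 and 0.14. One of the 18 lay wholly below control (2.71% of all genes) and 1 wholly above (2.56%), and 1 had an unadjusted p below 0.05 (1.75%), so 1 gene of each kind among 18 is near the share over all genes. Amot, an angiomotin that binds Yap and holds it at cell junctions, was at 102, 89.9 and 92.0 CPM in control and 75.5, 65.2 and 76.2 CPM in Yap-shRNA libraries. It was the gene wholly below control, and its log2 fold change was -0.39 (SE 0.10, unadjusted p = 0.00407, adjusted p = 1.0, edgeR). Frmd6, an upstream regulator of the cascade, was the gene wholly above control at 12.8, 12.3 and 12.4 against 11.6, 10.1 and 9.68 CPM, with a log2 fold change of 0.26. Wwc2 (0.36) and Mob1b (-0.08) completed the extremes of the list, and both overlapped. The core kinases Stk3, Stk4, Lats1 and Lats2 had log2 fold changes of 0.13, 0.09, 0.10 and 0.13, none past the test.

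Of 22 target genes named for Yap and Taz in other cell types, 21 were measured. None was called (0.00% of all genes) and none was free of overlap, where 2.71% of all genes lay wholly lower and 2.56% wholly higher. A log2 fold change above 0, higher in Yap-shRNA libraries, was seen for 18 of the 21 (48.9% of all genes), with a median of 0.16. Without control 1 and Yap-shRNA 3 it was again 18 of 21 (6616 of 13226 over all genes), with a median of 0.19. Amotl2 (0.15), Lats2 (0.13) and Ptpn14 (0.16) are also in the list of the Hippo cascade, so the counts above 0 of both lists include them. Ankrd1, a stress-responsive muscle ankyrin-repeat gene, had the largest value at 0.81 (SE 0.42), with 34.9, 10.5 and 10.3 CPM in control and 30.5, 27.1 and 40.3 CPM in Yap-shRNA libraries. Control 1 alone made these groups overlap. With all libraries its unadjusted p was 0.0838 (edgeR's quasi-likelihood test) and it was not called. Without control 1 the log2 fold change of Ankrd1 was 1.65 (adjusted p = 0.0628, same test). Without control 1 and Yap-shRNA 3 it was 1.47 (SE 0.14, adjusted p = 0.016, same test), 1 of 3 genes called in that fit (0.0227% of 13226). Both fits leave out the control that made the groups overlap, and the second was chosen after the data were seen. Its call is therefore no independent support. In the other alternatives run the log2 fold change of Ankrd1 ran from 0.52 to 1.03, and Ankrd1 was not called. Gadd45a, a growth-arrest and DNA-damage gene, followed at 0.52 (SE 0.18, unadjusted p = 0.0185, adjusted p = 1.0, edgeR). Ctgf and Cyr61, the targets most often used as readouts of Yap, were at -0.02 (SE 0.32) and 0.01 (SE 0.13), and Dock5 was lowest at -0.07 (SE 0.42). The summed target level was 414, 328 and 312 CPM in control and 379, 382 and 461 CPM in Yap-shRNA libraries, highest in control 1 and Yap-shRNA 3, the libraries with high fibroblast markers. The 6 macrophage markers summed to 66.4 to 171 CPM in control and 116 to 145 CPM in Yap-shRNA libraries, all 6 with a log2 fold change above 0 and none called. Their part in the target values was not tested.

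Muscle genes with textbook MCAT elements, the sites that Tead factors bind, were all measured and none was called (0.00% of all genes). Their median log2 fold change was -0.29, which is the value of Myh6. Without control 1 and Yap-shRNA 3 the median was -0.61, the value of Tnnt2. Control means were only 2.865 CPM for Myh6, 5.39 CPM for Tnnt2 and 1.68 CPM for Myh7. Acta2 was at 75.8 CPM and Acta1 at 43790 CPM, so both medians rest on genes with few reads. Acta1, the skeletal actin, had a log2 fold change of -0.07 (SE 0.12), Tnnt2 of -0.41 (SE 0.42), Myh6 of -0.29 (SE 0.40), Acta2 of -0.49 (SE 0.27) and Myh7 of 0.09 (SE 0.47). Acta2 is also a smooth muscle gene, and smooth muscle and pericyte markers, which include it, summed to 554 to 641 CPM in control and 497 to 569 CPM in Yap-shRNA libraries. Fast fibre genes had 7 of 7 measured, with a median of -0.10 (-0.16 without control 1 and Yap-shRNA 3) and 1 above 0. They ran from -0.27 for Tnnc2 and -0.16 for Tnni2 to 0.01 for Myh2. Myh4, the main fast myosin heavy chain of this muscle, was at -0.02. Tnnc2 had a control mean of only 6.54 CPM, against 18790 CPM for Tnnt3 and 9579 CPM for Tnni2. Why its level was so low was not tested, and its fold change rests on few counts. Slow fibre genes (6 of 6 measured, median -0.10 and -0.32 without control 1 and Yap-shRNA 3, 2 above 0) ran from -0.44 for Tnni1 and -0.26 for Tnnt1 to 0.88 for Myl2. Myl2, the slow regulatory light chain, was at 2.02, 2.76 and 1.23 CPM in control and 3.27, 3.84 and 3.99 CPM in Yap-shRNA libraries. Its groups did not overlap (SE 0.29, unadjusted p = 0.0139, adjusted p = 1.0, edgeR). Of the 6 slow genes, 1 lay wholly above control (2.56% of all genes) and 1 had an unadjusted p below 0.05 (1.75%), in both cases Myl2. Levels were low, with control means of 2.0 CPM for Myl2, 1.68 CPM for Myh7 and 3.52 CPM for Tnnc1. Other slow genes such as Myh7 and Tnni1 overlapped.

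**Figure D5:**
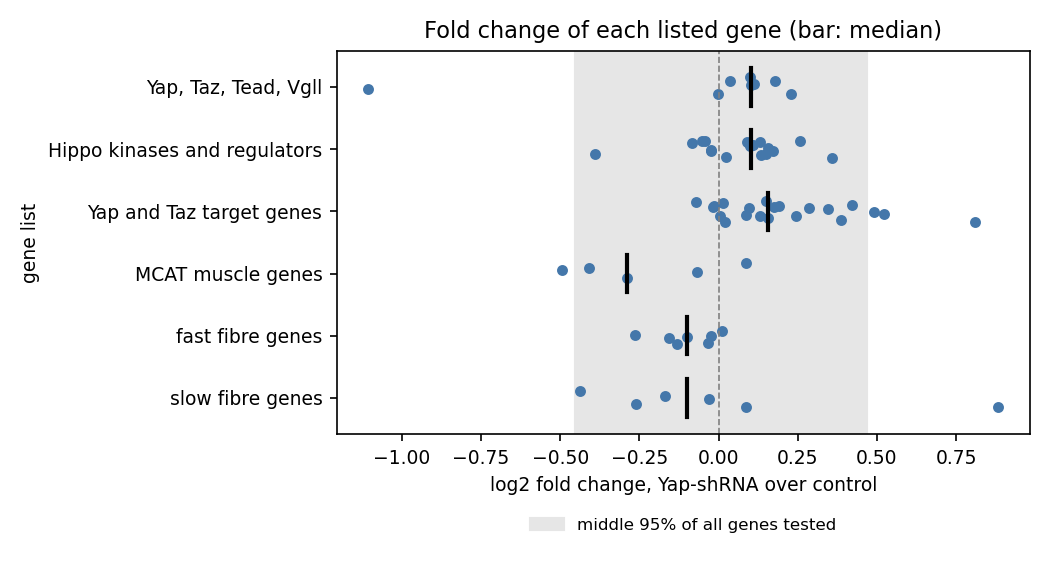
Each point is the log2 fold change (Yap-shRNA over control) of 1 gene, by list, with a bar at the list's median and the middle 95% of all genes shaded (-0.45 to 0.47). Yap1 lies far left at -1.10, and Yap and Taz target genes have their median at 0.16.

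The genes whose pattern over the 6 libraries was most like that of 4 members were found by the root mean square difference of centred log2 CPM (offset 0.5 CPM). For Yap1 the nearest were Gm15469 (0.210), Prss53 (0.217) and A930003A15Rik (0.243), all at 0.38 to 3.66 CPM, far below Yap1. Wwtr1 had closer neighbours in Gng12 (0.0291), Dnajc14 (0.0306) and Dhx33 (0.0328). Those of Vgll2 were Stk19 (0.0172), 4732487G21Rik (0.0281) and Gkap1 (0.0299). Tead4, with its wide spread, was nearest to Tmem252 (0.0733), Mpzl3 (0.0898) and Zfp185 (0.113), which share its high values in control 1 and Yap-shRNA 3. These are distances over 6 libraries that differed in their tendon, fibroblast and adipocyte markers, and no test was made of them.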

How the data were processed

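The authors deposited raw read counts per gene for the 6 libraries, without normalisation. The submitters' notes name bcl2fastq 2.20.0.422 and the build GRCm38. The aligner, counter and strand setting of these libraries are not given in the sources used here. The table holds no gene with fewer than 60 counts over the 6 libraries, so low genes had been left out before deposit.

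Counts were scaled by TMM and tested over all 13226 genes with edgeR 4.0.16 in R 4.3.3 (quasi-likelihood test with no covariate beside group, Benjamini-Hochberg threshold 0.05, biological coefficient of variation 15.7%). Each SE was derived from the fold change and its F statistic. DESeq2 1.42.0, edgeR's likelihood ratio test, limma-voom (limma 3.58.1), other scalings, a count filter, a replicate block, other gene lengths and leaving out libraries were alternatives. The fit was tested on simulated data. Exon lengths were from GENCODE M21, with 27 genes unmatched. Shares used scipy 1.17.1.

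Named genes were the 8 members, the 3 nearest to each of Yap1, Wwtr1, Tead4 and Vgll2, and in each list the 2 highest and 2 lowest log2 fold changes, or all genes of a list of 5. The core kinases Stk3, Stk4, Lats1 and Lats2, and Cyr61, were added after their values were seen. Amotl2, Ptpn14, Tnnt3 and Tnnc1, the cell type markers and the genes with overlapping exons are also named outside this rule. The members and lists were chosen with earlier results of these data known. The study paired limbs within animals, but no source ties the library numbers to animals. The main p-values are therefore from unpaired tests, which treat libraries as independent although limbs of the same animals may not be. For the Yap1 share and for Yap1 plus Wwtr1 per Tead, same-numbered libraries were also compared. A two-sided exact permutation test (sign flips of the differences, n = 3 pairs) gave p = 0.25 for each, the lowest possible.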

Additional observations from a re-analysis of the deposited data

How the results depend on the processing

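No gene passed an adjusted p of 0.05 under limma-voom, RLE or upper-quartile scaling, a minimum of 10 counts in every library, or the replicate block. DESeq2 and the likelihood ratio test each called 5, and the newer quasi-likelihood form with the block 2. Leaving out control 1 and Yap-shRNA 3 together gave 3 calls, and leaving out 1 library gave 0 to 1 (1 without Yap-shRNA 3). Leaving out both libraries and the newer form were chosen after seeing the data. The log2 fold change of Yap1 was -1.10 by DESeq2 (adjusted p = 5.85e-07) and by the likelihood ratio test (adjusted p = 2.22e-06), and -1.29 to -0.93 with 1 library left out (adjusted p = 0.106 to 1.0, edgeR's quasi-likelihood test). With the replicate block it was -1.13 (adjusted p = 0.105), or -1.13 (0.0761) in the newer form, and the block changed no call on any member. Same-numbered libraries correlated at -0.03, 0.22 and -0.21 in their deviations from the group means, and 2 of 6 libraries correlated best with their own number. Of 112 combinations of the other 7 members with a setting, 103 kept their direction and none gained a call. Tead1 turned to 0.000525 (DESeq2), 0.00063 (RLE) and 0.0425 (control 1 and Yap-shRNA 3 left out), and ran from -0.0725 to 0.0624 with 1 library left out. Tead4 turned to -0.10 without both libraries and ran from -0.33 to 0.27. In percentage points, the share of Tead4 ran from -2.24 to 1.48 with 1 library left out and was -1.07 without both, that of Vgll2 ran from -1.14 to 1.19 and was -1.46, and that of Tead2 ran from -0.00518 to 0.893. Yap1 plus Wwtr1 per Tead was -0.37 with the longest coding transcript, and -0.25 to -0.19 with 1 library left out. The cause of these changes was not tested. The control order of the members kept 7 of 7 neighbours with any 1 library left out 6 of 7 with the longest coding transcript and 5 of 7 on raw reads, where Tead1 came first. At 27 to 47 counts, depth limits Tead2 most.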
